A study of Mus musculus with 3 samples.

Results

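The 2 wild-type arrays of a 3-array study of the mouse posterior frontal suture were compared, postnatal day 7 (P7) minus postnatal day 5 (P5). Of 27659 named genes with a probe on the array, 11081 were well above background on both wild-type arrays and had a difference. A gene was called bright when its brightest usable probe lay at least 2 log2 units above the 75th percentile of its array, averaged over both arrays, which left 5082 genes (45.9% of those measured). A further 3169 genes were above background at P5 only and 167 at P7 only, 16 were measured by different probes at the 2 ages, and 13226 were not well above background on either array. These have no difference here.

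The wild-type mice were C57BL/6 with 2 intact copies of Runx2 (Runx2+/+), aged P5 or P7. The remaining array came from Runx2+/- mice of the same strain at P7, and its levels are given beside some genes, lists and probes. Total RNA of dissected sutures was extracted with ISOGEN, amplified with the Low Input Quick Amp kit, labelled with Cy3 and hybridised to 1 Agilent one-colour array per group. Neither the number of mice behind each array nor the part of Runx2 that the mutant allele lacks is given in the labels. With no replicate array the comparison is between 2 hybridised samples and has no p-value.

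The posterior frontal suture is the fibrous joint between the frontal bones, and in the mouse it is the cranial suture that closes after birth, partly through a cartilage intermediate. Osteoblasts at its bone fronts lay down type I collagen and mineralise it, osteoclasts resorb and reshape the bone, and fibroblast-like cells in between make collagen and elastic fibres. The frontal bone holds blood-forming marrow, and the brain coverings lie beneath, so that a dissected suture can carry blood, marrow and meningeal cells. In such bulk RNA, fewer cells of a type and less RNA per cell cannot be told apart.

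Bone markers were present, with 24 of 25 osteoblast genes measured on both arrays. The arrays differed in brightness. The P7 wild-type array was the dimmest, with 29.2% of 55680 probes well above background against 40.1% at P5 and 47.3% on the Runx2+/- array. The SD of a log2 difference, from probes spotted repeatedly on each array, was 0.24. Between different probes of a bright gene the root-mean-square SD was larger, at 0.41. Within transcripts that had several probes, the difference rose by a median of 0.18 log2 units per kb towards the 3′ end (1102 transcripts). The median difference also moved with brightness, from 0.07 for genes between 2 and 4 log2 units to -0.18 for genes above 6. The part of these slopes in the results below was not tested.

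Most bright genes were alike at the 2 ages. The median difference of the 5082 was 0.02 log2 units (SD over genes 0.50), and 95.8% lay within 2-fold. At least 2-fold higher at P7, with all usable probes of the gene in the same direction, were 123 bright genes, or 2.42%. At least 2-fold lower were 78, or 1.53%. Over all 11081 measured genes the counts were 454 higher (4.1%) and 233 lower (2.1%). The lowest level well above background was -2.12 log2 units from the 75th percentile at P5 and -0.69 at P7. Dim genes that are lower at P7 therefore drop out more readily than dim genes that are higher. The 1293 measured genes with a mean level below 0 had a median difference of 0.37. The part of this filter in the counts was not tested. Of the bright calls, the higher genes made up 61.2%. The normexp correction for background, with an offset of 50, put the median of all bright genes at -0.55 (scaled to the 75th percentile) or -0.25 (scaled to the median). That share was then 0.90% or 5.88%. In the main values the 75th percentile was a signal of 52.1 at P5 and 22.8 at P7, so the offset is larger beside the P7 signals. Its part in the shift was not tested. Agreement between probes could seldom be checked, since 12 of the higher and 11 of the lower genes had 2 or more usable probes. Another 12 bright genes were 2-fold apart by their brightest probe but had a probe of the opposite sign.

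**Figure D1:**
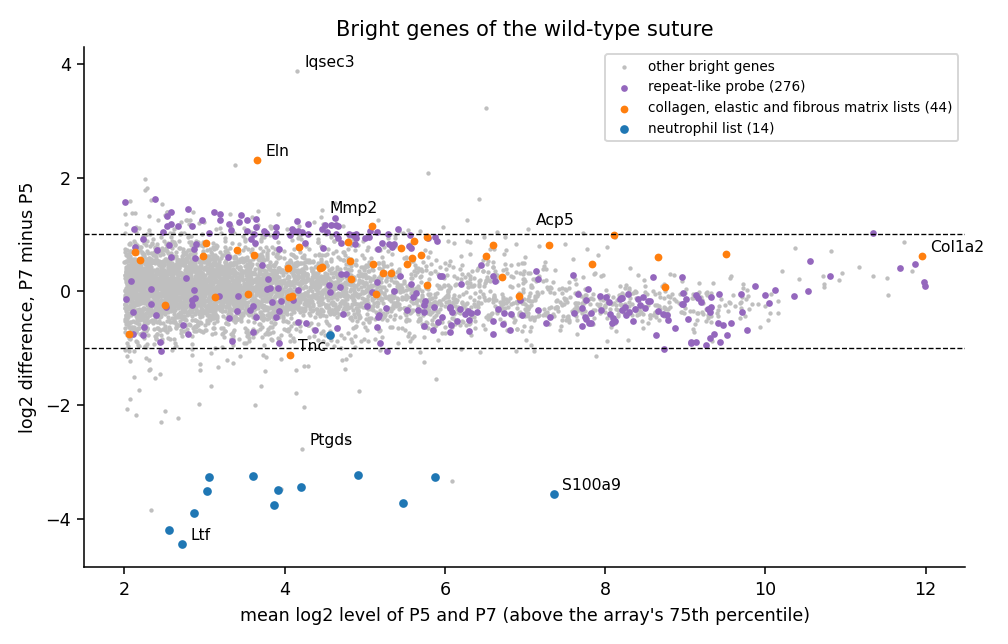
Each point is a bright gene, with its mean log2 level on the P5 and P7 wild-type arrays on the x axis and its log2 difference, P7 minus P5, on the y axis; dashed lines mark 2-fold. Neutrophil genes form a separate group below -3 (except Anxa1), matrix genes lie mostly above 0 (above the median of bright genes after normexp), and genes read by repeat-like probes lie on both sides of 0, with a band of them near 1.

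Genes of neutrophils, the granule-carrying phagocytes made in marrow, had the largest decreases. S100a9, a subunit of calprotectin, the main calcium-binding protein of neutrophil cytosol, lay at 9.14 at P5, 5.58 at P7 and 7.55 on the Runx2+/- array, where levels are log2 units over each array's 75th percentile. Its partner S100a8 lay at 7.34, 3.62 and 5.82 on the same arrays. The wild-type P7 array was the low one for both subunits, by 11.9-fold and 13.2-fold against P5.

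The proteins of neutrophil granules went the same way. Ltf (lactoferrin, an iron-binding protein of secondary granules) lay at 4.94 at P5 and 0.51 at P7, a 21.6-fold decrease. Ngp, another secondary granule protein, lay at 4.65 and 0.46, an 18.2-fold decrease. Lcn2, which binds bacterial siderophores, fell by 3.75 log2 units and Retnlg, a resistin-like protein of myeloid cells, by 3.89. For Camp (the antimicrobial peptide cathelicidin) both usable probes were read, and they gave differences of -3.25 and -3.31. Hp (haptoglobin) was 9.59-fold lower.

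The stefins, small inhibitors of cysteine proteases that mouse neutrophils carry in several copies, had differences between -3.23 for Stfa2 and -3.50 for Csta2. Stfa1, Stfa3 and Stfa2l1 lay between them, as did Cstdc4 (-3.47) and Cstdc5 (-3.33), which are not on the neutrophil list. These copies are nearly identical, so their probes may read each other's transcripts and their values count as uncertain one by one. The transcript ENSMUST00000077110, which has no gene name in the files, was 14.4-fold lower.

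Of the 34 genes of the neutrophil list, 22 were measured on both arrays, 11 were above background at P5 only and 1 on neither. Over all 27659 named genes 3169 were above background at P5 only. In other lists that count was 0 of 83 for ribosomal protein genes and 8 of 19 for epidermis genes. Of the 22, 17 were at least 2-fold lower at P7 and 0 were higher (2.1% and 4.1% of all measured genes). Of the 15 bright members, 13 were lower and all 15 were below 0, with a median of -3.49, against 1.53% lower and a median of 0.02 over all bright genes. The bright limit is set on the mean of the same 2 arrays. Ltf, Ngp, Retnlg, Csta2, Hp, Camp and Lcn2 lay under 2 at P7 and passed it only through their P5 level. The bright counts therefore describe these genes and are no separate support. Over the 22 measured members the median was -3.445. The bright members short of 2-fold were Anxa1 (annexin A1, a membrane-binding protein that many cell types make) at -0.76 and Csf3r at -0.13, which was 0.12 with quantile normalization. The Csf3r probe is read below as repeat-like. Among dimmer members, the protease inhibitor Slpi was 4.11 log2 units lower and Mpo (myeloperoxidase of primary granules) was 0.80 lower. Elane (neutrophil elastase, made in precursors) was 0.74 higher, and Mmp9, which osteoclasts also make, was 0.72 higher. All of the 14 bright members other than Csf3r were lowest on the wild-type P7 array of the 3. The Runx2+/- array, which was also P7, lay between the wild-type arrays for 12 of them and above P5 for 2, Camp and Anxa1. Their median level was 5.45 at P5, 2.08 at P7 and 4.52 on the Runx2+/- array, and the log2 of their summed level was 10.42, 7.08 and 9.09.

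**Figure D2:**
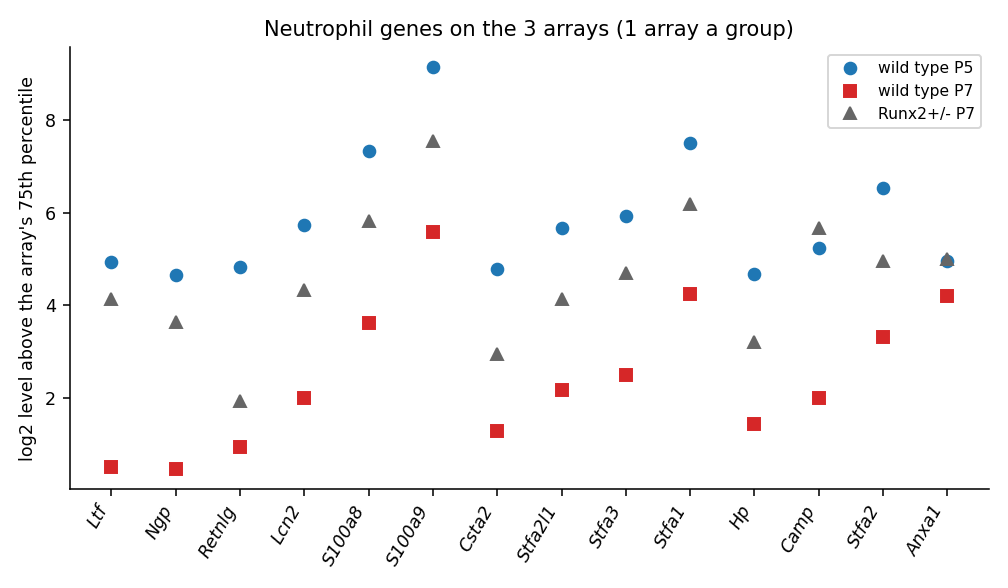
The log2 level above the 75th percentile of the array (y axis) is plotted for the 14 bright neutrophil genes without Csf3r (x axis, ordered by difference), with 1 symbol per array. The P7 wild-type value is the lowest of the 3 for every gene shown, and the Runx2+/- value lies between the wild-type values for 12.

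The 250 bases before RefSeq start sites (GRCm38.p6) were searched on both strands for the C/EBP core TTGCNNAA. It is bound by the C/EBP factors of granulocyte development. The neutrophil set was the 14 of 15 bright members with a promoter. Csf3r was not left out, so the set may differ from the 14 genes above. The C/EBP core was present in 7 of 14 bright neutrophil genes (50%) and in 1 of 10 osteoblast genes. Among bright genes with a promoter the share was 9.6%, and among all 27025 promoters 10.8%. The motif GAGGAA, part of the site of the myeloid factor PU.1, was in 9 of 14, against 26.2% of bright genes and 25.9% of all promoters. The Runx motif TGTGGT was in 6 of 14, against 12.6% and 15.9%. In the osteoblast list 2 of 10 promoters held the Runx motif, and in the collagen, elastic and fibrous matrix lists 1 of 27. Matches of the 3 motifs were counted separately, and they may overlap at their ends. The bright neutrophil genes include several stefin copies, whose promoters may be copies too. Their matches are then not separate counts, and the likeness of the promoters was not tested. Of the 5082 bright genes 3438 were matched to a promoter. A match is a description of the letters and not a bound site. Several of the neutrophil genes were bright only through their P5 level, so these shares are no separate support. Any part of these factors in the decreases was not tested. The 100 bases around the first C/EBP match are shown for 4 of the genes with the largest decreases, 5′ to 3′ on the strand of the gene, with the match in capitals. The match starts 75 bases before the start site in Ltf (chr9:111019171-111019270, plus strand), 138 in Ngp (chr9:110419624-110419723, plus strand), 236 in S100a9 (chr3:90695872-90695971, minus strand) and 216 in Lcn2 (chr2:32387890-32387989, minus strand).
Ltf: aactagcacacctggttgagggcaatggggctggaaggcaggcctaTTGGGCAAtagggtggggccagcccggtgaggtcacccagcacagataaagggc
Ngp: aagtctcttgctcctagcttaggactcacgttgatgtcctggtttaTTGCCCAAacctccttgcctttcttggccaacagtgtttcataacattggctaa
S100a9: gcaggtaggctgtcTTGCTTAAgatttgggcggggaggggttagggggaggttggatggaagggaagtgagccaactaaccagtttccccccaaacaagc
Lcn2: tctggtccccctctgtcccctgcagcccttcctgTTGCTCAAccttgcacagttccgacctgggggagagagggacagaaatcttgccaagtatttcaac
In Ltf the match is on the opposite strand, and in the others on the strand shown.

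Other blood lists moved less. Of 9 bright erythroid genes 3 were lower (1.53% of all bright genes were), 7 lay below 0 and the median was -0.51. The adult beta-globins fell, Hbb-bs from 3.91 to 2.24, Hbb-b2 from 5.44 to 4.07 and Hbb-bt from 7.64 to 6.59. The alpha-globins Hba-a1 and Hba-a2 were lower by 0.56 and 0.51, short of 2-fold. Globin copies share most of their sequence, so these values, which are all 3 of the calls, are not separate measurements. Of 11 bright macrophage and monocyte genes 1 was lower and 1 higher (1.53% and 2.42% of all bright genes), with a median of -0.16. The lower one was the lysozyme gene Lyz1, from 4.62 to 2.63. The nearly identical Lyz2, below the bright limit, was 2.28 lower, and the probes of the 2 genes may read each other's transcripts. The higher one was Cd68, a lysosomal glycoprotein abundant in macrophages and osteoclasts, from 2.39 to 3.60. Tyrobp, the signalling adaptor of myeloid receptors, was 0.97 lower. Genes of antigen presentation were split. Cd74, the invariant chain of MHC class II, rose from 2.93 to 4.25, and the class II chain H2-Ab1 was 0.96 higher. The class I genes B2m and H2-K1 were 0.26 and 0.14 lower.

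Ifitm1, an interferon-induced membrane protein, fell from 3.61 to 1.31, and its 2 probes gave -2.30 and -2.39. C3, the central component of complement, fell from 3.01 to 1.65, with -1.36 and -2.43 from its 2 probes. The remaining bright interferon genes were within 2-fold, among them Ifi27 at 0.34 and Bst2 at 0.65. C1s1 and Serping1, a protease of the complement cascade and its inhibitor, were 0.99 and 0.64 higher, short of 2-fold.

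Many of the increases were read by probes that hold simple repeats. A probe was called repeat-like when it shared a stretch of 16 bases, on either strand, with probes of 5 or more other genes. This definition was chosen after values were seen, as were the counts from it. Such probes stood for 276 of 5082 bright genes (5.43%), for 3 of the 78 lower genes (3.85%) and for 46 of the 123 higher genes (37.4%). Without them 77 genes were higher and 75 lower. Minimum numbers of 1, 2, 3, 5 and 10 other genes were tried, and the higher genes past them numbered 60, 51, 49, 46 and 41.

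The direction went with the repeated unit. Bright probes with 8 or more units of TG numbered 65, and every one was above 0, with a median of 1.04 and values from 0.21 to 1.44. Another 8 probes with the unit CT had a median of 1.25. The complementary units were on the other side, with a median of -0.31 for 34 CA probes and of -0.53 for 9 GA probes, of which 1 and 0 lay above 0. The 6561 bright probes not called repeat-like had a median of -0.01. Probes without a gene name were not scored as repeat-like and are among them, also those counted by unit above. Levels on the Runx2+/- array also differed by unit. CA probes had medians of 8.19 at P5, 8.0 at P7 and 5.97 on the Runx2+/- array, and TG probes had 3.70, 4.73 and 3.98.

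**Figure D3:**
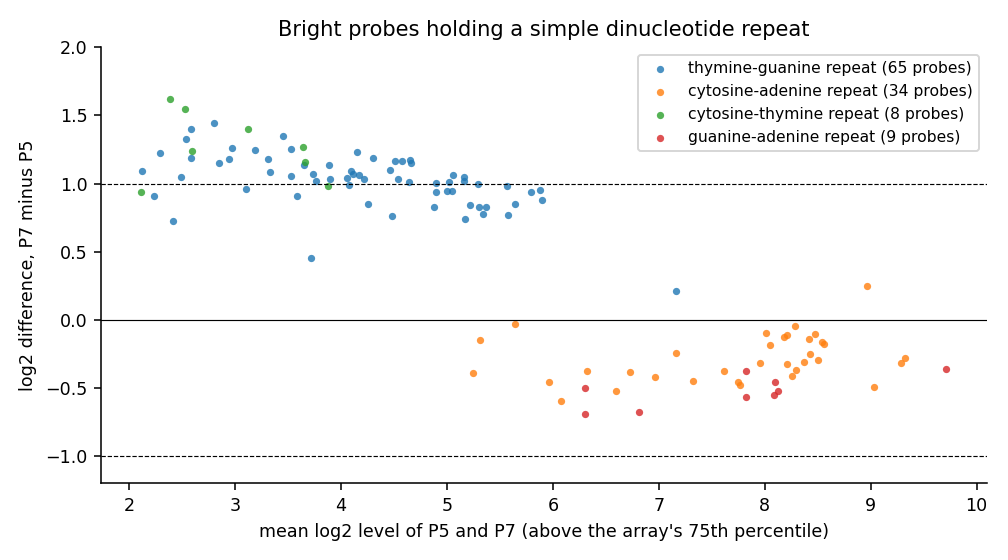
Bright probes that hold 8 or more units of a dinucleotide repeat are plotted by mean log2 level on the P5 and P7 wild-type arrays (x axis) and log2 difference, P7 minus P5 (y axis), coloured by unit; dashed lines mark 2-fold. All 65 thymine-guanine and all 8 cytosine-thymine probes lie above 0, and 33 of 34 cytosine-adenine and all 9 guanine-adenine probes lie below.

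Several markers of other cell types were bright only through such probes, so stretches of 30 bases are shown to let their values be read with that in view. They are copied from the array files, with the 16 shared bases in capitals. Hemgn, an erythroid nuclear protein (chr4:46407248-46407307, minus strand, mm9, as for all probes), was 1.15 higher at P7, and Mcam, an adhesion molecule of vessel walls (chr9:43950664-43950723, plus strand), was 1.14 higher. Fgf23, the phosphate hormone of osteocytes (chr6:127030758-127030817, plus strand), was 0.31 lower, and Snap25, a synaptic membrane fusion protein (chr2:136607709-136607768, plus strand), was 0.10 lower. The Csf3r probe, for the receptor of granulocyte colony-stimulating factor (chr4:125721478-125721537, plus strand), shared its stretch with probes of 7 other genes. The other 4 shared theirs with probes of 95.
Hemgn: TGTGTGTGTGTGTGTGtgtgtgtgtgtgtg
Mcam: gaggTGTGTGTGTGTGTGTGtgtatacata
Fgf23: cCACACACACACACACAcacatacatgtaa
Snap25: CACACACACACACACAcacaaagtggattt
Csf3r: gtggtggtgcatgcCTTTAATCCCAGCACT
A second Fgf23 probe lay at -2.91 and -2.85 on the wild-type arrays, and a second Mcam probe at -1.85 and -0.45, none of them usable. The values of these 5 genes are therefore given as readings of the probe. Without repeat-like probes the erythroid and macrophage medians were -0.54 and -0.20. Medians over bright members of the 52 gene lists below are unchanged to 2 decimals without such probes, except where a value without them is given.

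Bone genes were mostly higher at P7 by less than 2-fold. Col1a2, a chain of type I collagen, lay at 11.65 at P5 and 12.27 at P7, and Col1a1, the other chain, at 9.18 and 9.84. Sparc (osteonectin, a collagen-binding matrix protein) had 10.95 and 11.37, but its difference of 0.42 was -0.11 with quantile normalization and -0.03 in the authors' values. These are among the brightest genes of the arrays, where the median of all genes was below 0. The osteocalcin genes Bglap, Bglap2 and Bglap3, made by mature osteoblasts, were higher by 0.77, 0.74 and 0.78, but their copies are too alike for the probes to be separate readings. Alpl (alkaline phosphatase, needed for mineralisation) went from 4.40 to 5.09 and Dlx3, a homeobox factor of osteoblasts, from 4.99 to 5.78. The probes of Ibsp (bone sialoprotein) were at 0.10 and -0.13 and gave no direction.

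The exceptions lay in the same list. Spp1 (osteopontin, a phosphoprotein of bone matrix) was 0.84 lower, from 5.55 to 4.71, and Ifitm5, an osteoblast membrane protein, was 0.79 lower, from 2.78 to 1.99. Runx2, the transcription factor that osteoblast formation requires, fell short of bright, with 2.38 at P5 and 1.46 at P7 from a single usable probe. Of 25 osteoblast genes 24 were measured and 15 bright, and 0 of the bright ones were 2-fold apart, against 2.42% higher and 1.53% lower of all bright genes. Above 0 were 12 of the 15 (51.5% of all bright genes), with a median of 0.42, which became -0.25 after normexp with the 75th percentile, where all bright genes had -0.55. Of these 15 genes, 14 were lower on the Runx2+/- array than at P5. So were 74 of 80 bright ribosomal protein genes, while 11 of 12 bright collagens outside the fibrillar list were higher there. That array differs from the P5 array in both age and genotype, and the share over all bright genes was not counted.

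Osteoclast genes had the highest median of the bone lists, 0.84 over 6 bright genes, and 0.14 or more under every setting tried. Acp5 (tartrate-resistant acid phosphatase) rose from 6.49 to 7.59, and its probes gave 1.1 and 1.23. Ctsk (cathepsin K, which degrades bone collagen) went from 5.83 to 6.71, Itgb3, the integrin chain of osteoclast attachment, from 2.22 to 3.06 and Tcirg1, an osteoclast proton pump subunit, from 1.99 to 2.82. Nfatc1, the transcription factor of osteoclast formation, was the exception, with differences of -0.64 and -0.28 from its probes. The dimmer fusion genes Atp6v0d2 and Dcstamp were higher by 1.37 and 1.18. Of 5 bright osteocyte genes, 3 were read by repeat-like probes, and the median of -0.31 was -0.16 over the other 2. Dmp1, a matrix protein of osteocytes too dim to be called bright, rose from 1.34 to 2.56.

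**Figure D4:**
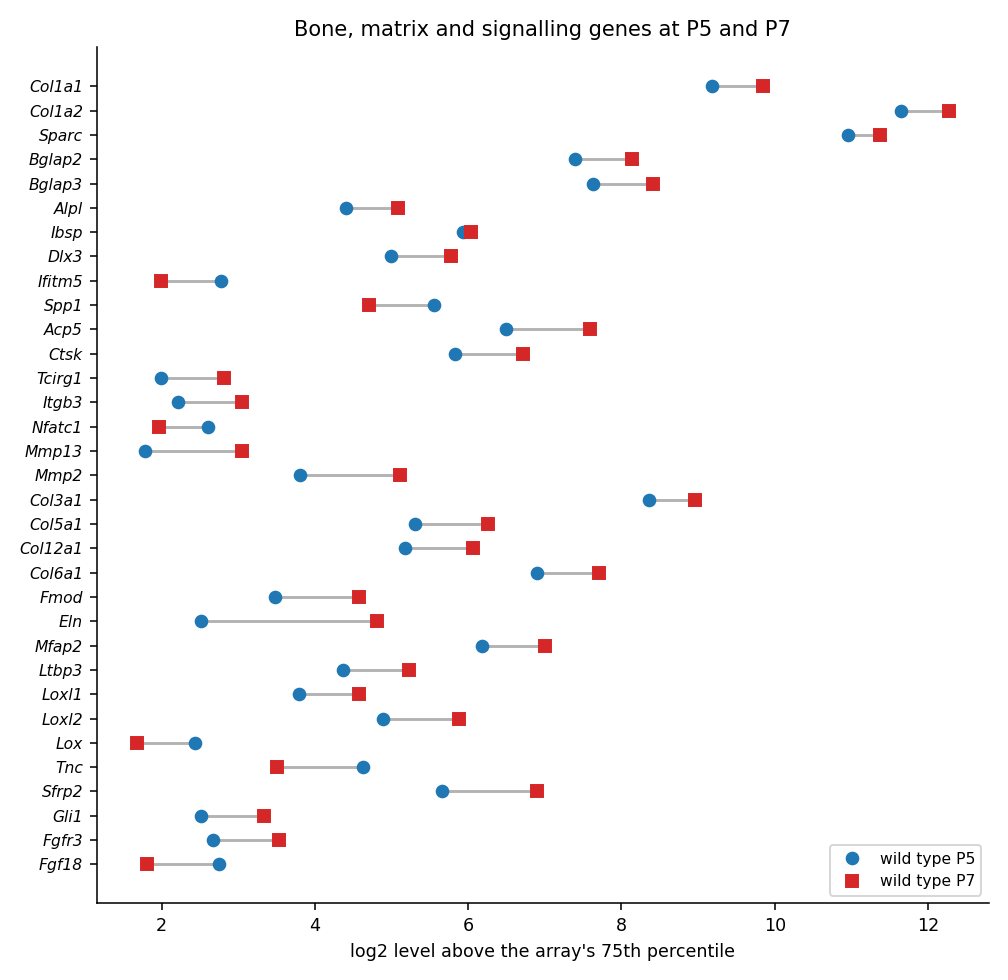
For 33 bright genes of bone, matrix and signalling (y axis), the log2 level above the 75th percentile of the array (x axis) is shown at P5 (circle) and P7 (square), joined by a line. Eln has the longest step upwards, and Ifitm5, Spp1, Nfatc1, Lox, Tnc and Fgf18 are lower at P7.

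Fibre-forming matrix genes lay mostly above 0, few of them past 2-fold. Of all bright genes 51.5% were above 0 and 2.42% were 2-fold higher, shares to set beside the counts below. Eln (elastin) was the most increased named gene of known matrix function, from 2.51 to 4.81, or 4.93-fold, with 3.69 on the Runx2+/- array. Of 15 bright elastic fibre genes it alone was past 2-fold, 12 were above 0 and the median was 0.63. Mfap2, a microfibril protein, went from 6.19 to 7.0, and Ltbp3, which binds latent Tgfb, from 4.36 to 5.23. The fibrillin Fbn1 was 0.70 higher. Fibulin genes differed less, with Fbln2 at 0.11 and Fbln5 at 0.40.

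All but Col11a1 (-0.04) of the 7 bright fibrillar collagens were above 0, with a median of 0.62 and no gene past 2-fold. Col5a1, which sets the diameter of type I fibrils, went from 5.30 to 6.25, and Col3a1, of loose connective tissue, from 8.36 to 8.97. Of 12 other bright collagens 9 were above 0, with a median of 0.56. The largest difference, 1.15, was of a gene whose usable probes disagreed in sign, so it was not called. Among the named genes Col12a1 (a fibril-associated collagen, 0.89) and Col6a1 (of beaded filaments, 0.81) were highest. Fmod (fibromodulin, which guides fibril assembly) rose from 3.48 to 4.58, while Dcn (decorin) differed by 0.07 and Lum (lumican) by 0.26.

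The enzymes that modify collagen followed with smaller differences. Of 20 bright procollagen enzymes 17 were above 0 and 1 was past 2-fold, with a median of 0.24. Over all bright genes 51.5% were above 0, 2.42% were 2-fold higher and 1.53% lower. That gene was P3h3, a collagen prolyl hydroxylase family member, from 4.02 to 5.02. The cross-linking oxidases split, with Loxl2 higher by 0.98, Loxl1 by 0.78, and Lox itself at -0.75. Serpinh1, the collagen chaperone, was 0.45 higher. In the fibrous matrix list 16 of 20 bright genes were above 0, the median was 0.45, and Tnc (tenascin C, a glycoprotein of growing connective tissue) went against the rest, from 4.62 to 3.50, with -1.12 and -0.93 from its probes. After normexp with the 75th percentile the medians of the fibrillar, other collagen, elastic fibre, fibrous matrix and procollagen enzyme lists were -0.08, -0.17, -0.11, -0.26 and -0.43, each above the -0.55 of all bright genes.

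Tendon and ligament genes did not share this direction, with a median of -0.35 over 4 bright genes, of which Fmod was above 0. In that list Scx, the transcription factor of tendon cells, was at -0.66 and Tnmd (tenomodulin) at -0.05.

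Proteases of the matrix had a median of 0.45 (-0.30 after that normexp), with 10 of 13 above 0 against 51.5% of all bright genes. Mmp2 (gelatinase A) rose from 3.80 to 5.11 and Mmp13, the collagenase of hypertrophic cartilage and osteoblasts, from 1.79 to 3.05. Mmp13 stood at 0.30 on the Runx2+/- array and Mmp2 at 4.97. Adamts14, which trims procollagen ends, was 0.99 higher, and the inhibitor Timp2 differed by 0.07, with 0.66 from its other probe. Cartilage genes were few. Acan (aggrecan) was 0.81 higher and Matn4 (matrilin) 0.96 higher, with 0.26 from the other Matn4 probe. Col2a1, below the bright limit, rose from 0.22 to 1.56 and Col9a2 from 1.1 to 2.77. The chondrocyte median of 4 bright genes was 0.69, and 0.81 without Sox5, whose probe was repeat-like.

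Signalling genes differed one by one more than as lists. Beside the counts of these lists, 51.5% of all bright genes were above 0. In the Wnt pathway, where secreted ligands act through Frizzled receptors, Sfrp2, a secreted inhibitor, rose from 5.66 to 6.90. Notum, which inactivates Wnt ligands, was 0.92 higher, the ligand Wnt5b 0.72 higher and the intracellular inhibitor Nkd2 0.53 lower. Of 11 bright Wnt genes 8 were above 0, with a median of 0.17 that turned to -0.41 and -0.12 after normexp with the 75th percentile and the median. In the hedgehog pathway Gli1, both factor and target of the pathway, was 0.82 higher, from 2.52 to 3.33. The median of 5 bright hedgehog genes was 0.20, and 0.51 without Smo, which was repeat-like, but it was -0.25 after normexp with the 75th percentile and -0.06 for genes with 2 or more usable probes. Gli1 lay at 1.63 on the Runx2+/- array, below its P5 level.

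Among Fgf genes the receptor Fgfr3, which restrains bone growth, was 0.86 higher and the osteogenic ligand Fgf18 was 0.93 lower. The list gave no direction, with a median of -0.18 over 8 bright genes (-0.06 without Fgf23), 0.15 over all 16 measured genes and 0.38 when each gene took its 3′-most probe. For Bmp and Tgfb genes the median was 0.17 over 16, or -0.36 and -0.07 after the normexp settings, with Gdf10 (a Bmp3-like ligand) rising from 1.53 to 3.14 and Tgfb3 0.47 higher. The receptor Notch1 was 0.68 lower and Notch3 was 0.34 higher. Genes of the Igf axis, the growth factors and their binding proteins, had a median of 0.55 over 10 bright genes, 8 of them above 0, and -0.19 after normexp with the 75th percentile. Igf2r, which clears Igf2, was 0.74 higher, Igfbp4 0.71 higher, Igf2 0.50 higher and Igfbp6 0.69 lower. For Igf1 the 5 usable probes ran from -0.28 to 0.93 and gave no direction, and the 7 probes of the noncoding RNA H19 ran from -1.1 to 0.55. Grb10, an imprinted adaptor that restrains growth signals, fell from 5.71 to 4.67.

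Of the genes that mark cranial mesenchyme, Zic1, a zinc-finger factor of the cranial midline, rose from 3.67 to 4.67, and its probes gave 1.0 and 0.98. Msx1 (a homeobox factor) was 0.76 higher, and Ddr2, a collagen receptor, differed by 0.04, with 0.54 from its other probe. The list had a median of 0.46 over 9 bright genes, 8 above 0, and -0.17 after normexp with the 75th percentile. The clock genes Dbp and Tef were higher by 1.26 and 0.64, and the Dbp probes gave 1.26 and 0.94. All 4 bright clock genes were above 0, with a median of 0.65 that was -0.03 after that normexp.

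**Figure D5:**
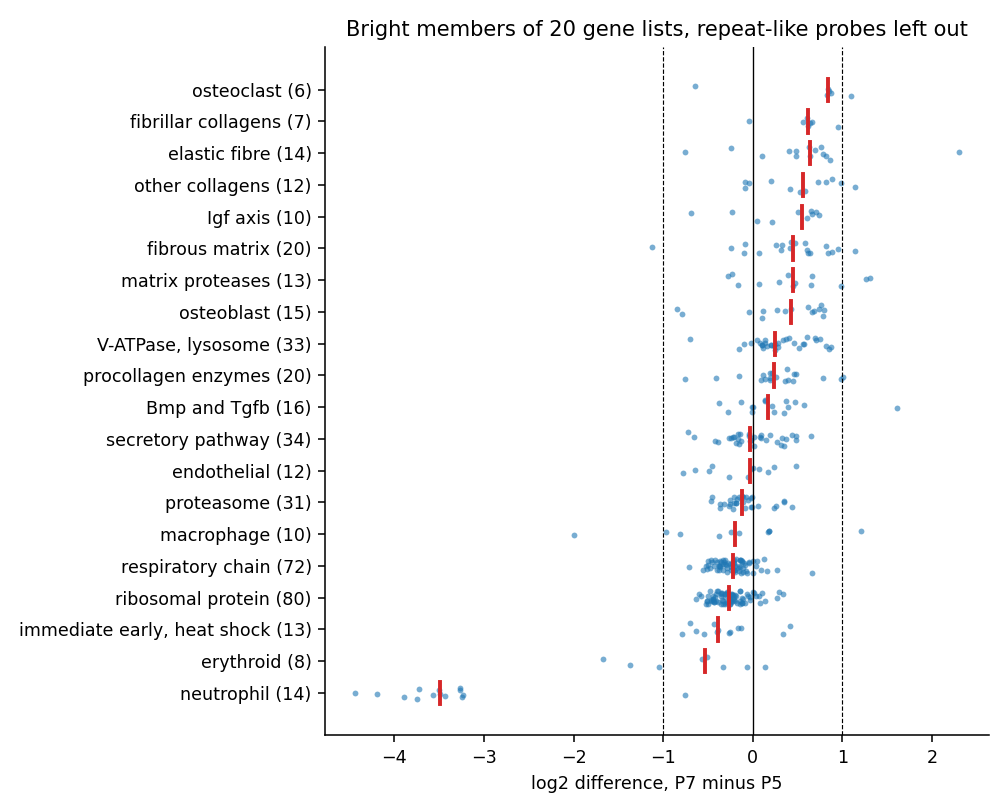
Each point is a bright gene of a list (y axis, with the number of genes after repeat-like probes were left out) at its log2 difference, P7 minus P5 (x axis); red bars are list medians and dashed lines mark 2-fold. The matrix and bone lists shown lie to the right, with medians up to 0.84 (most are below 0 but above all bright genes after normexp with the 75th percentile), and the neutrophil list lies to the left at -3.50.

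General cell functions moved by small amounts in large lists. For the counts here and in the next paragraph, 51.5% of all bright genes were above 0. Of 80 bright ribosomal protein genes 71 were below 0, with a median of -0.26, and 0 were past 2-fold. Of these, 75 were brighter than 6 log2 units, where all bright genes without repeat-like probes had a median of -0.16. Of 73 bright respiratory chain genes 65 were below 0, with a median of -0.22, and the members under that brightness had -0.24 where all bright genes there had 0.05. Rps7 (-0.63) and the complex I subunit Ndufs8 (-0.72) are the named members that were lowest. Proteasome genes had a median of -0.11, with 25 of 31 below 0. Lysosome and proton pump genes went the other way, with 29 of 33 above 0 and a median of 0.25, although after the normexp settings it was -0.37 and -0.07. Gaa (acid glucosidase, 0.88) and Atp6v0c (a proton pump subunit, 0.85) lay at the top of the named members.

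Immediate early and heat shock genes, which respond within minutes to handling and stress, were below 0 for 11 of 13 bright members, with a median of -0.38. Jun was 0.79 lower, Ccn1 0.70 lower and Jund 0.42 higher. In the cell cycle list 15 of 23 were below 0, with a median of -0.17. Mki67, a proliferation marker, was 0.66 lower, with -0.14 from its other probe. Actb (beta-actin) was 0.62 lower, and Gapdh, read by 8 probes, ran from -0.55 to 0.49. Gpx3, a secreted glutathione peroxidase, rose from 4.54 to 5.8. Srsf2, a splicing factor, fell from 3.64 to 2.25 by its brightest probe, and its second probe gave -0.62.

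Markers of neighbouring tissue were few at this brightness. Ptgds, the prostaglandin D synthase abundant in the brain coverings, fell from 5.60 to 2.83, with 2.16 on the Runx2+/- array. The other bright leptomeningeal genes were not lower to that extent, with Foxc1 at -0.06, Aldh1a2 at 0.19 and Igfbp2 at 0.66. Tubb2b, a tubulin of young neurons, fell from 3.93 to 1.95. Of 26 neuronal and glial genes 11 were measured, 4 of them lower and 0 higher (2.1% and 4.1% of all measured genes), and the median was -0.65. The only bright ones were Snap25, read by a repeat-like probe, and 1 more. Skeletal muscle and epidermis had 2 and 1 bright genes. Endothelial genes had a median of -0.03 over 12, with Mmrn2 (-0.78) and Robo4 (-0.65) lowest, and smooth muscle genes 0.16 over 10, or -0.01 without Mcam and -0.48 after normexp with the 75th percentile. In the adipocyte list Fabp4, a fatty acid carrier that vessels also express, was 0.83 lower, and the median was -0.21 over 7.

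The largest increases of all were for genes with less certain readings. Iqsec3, an exchange factor known from synapses, had 2.21 at P5, 6.09 at P7 and 2.0 on the Runx2+/- array, a 14.6-fold difference from a single usable probe (chr6:121329853-121329912, minus strand, mm9). A further probe of Iqsec3 was undetected on both wild-type arrays. The transcript ENSMUST00000023534, described in the files as a golgin, rose from 4.91 to 8.12, and 5430417L22Rik from 4.75 to 6.82. Fam24b, Cyp2d11, Nanos3, Ndufaf5, Ptpa, Sumo3 and ENSMUST00000156526 rose by 1.54 to 2.23, each on 1 usable probe. Of the 15 most increased genes, Gata5, 2900040C04Rik and ENSMUST00000097953 had repeat-like probes. Of the 123 higher genes 76 had 1 probe on the array, and 31 had a further probe that was undetected on both arrays. Of the 78 lower genes the corresponding counts were 59 and 4, and of all 5082 bright genes 3072 and 552.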

How the data were processed

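Per the labels' protocols, suture RNA was hybridised to 1 one-colour Agilent array per group. The authors deposited scanner files, read with Feature Extraction 10.7.1.1 per the file headers (9.5.1.1 per the submitters' processing notes), whose processed signal is an intensity on a linear scale corrected for background. The authors' own table of intensity values served as an alternative, and its normalization is not given in the sources used here.

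Control and outlier spots were dropped, spots were averaged per probe on the log2 scale, and each array's 75th percentile was subtracted. Probes well above background on both wild-type arrays were used, no spot was saturated, and a gene took its brightest probe. Names came from RefSeq (GRCm38.p6) for 27305 probes and from the files for 9437, and 16194 probes were for intergenic transcripts and 2744 had only a probe identifier. Probe coordinates are on mm9, and exons were not looked up. Levels of different probes are not on 1 scale. All arrays lay on 1 slide, so no batch could be tested.

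The comparison and 52 gene lists were chosen with earlier results of these data known. Named were the 15 bright genes most increased and most decreased, for each list the 4 members farthest from 0, if 1.5-fold or more apart, and the 2 brightest, and a panel of 30. Not every gene the rule selects is named, and 1 is not reported here. Chosen after values were seen were Anxa1, Stfa2, Slpi, Mpo, Elane, Bglap, Atp6v0d2, Dcstamp, Col9a2 and Fbln5, and repeat-like probes. Alternatives used limma 3.58.1 in R 4.3.3 (quantile, cyclic loess, normexp with offset 50). The steps were tested on simulated data.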

Additional observations from a re-analysis of the deposited data

Results flagged for a closer look

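Probes for intergenic transcripts were not part of the comparison. Of 16194 such probes, 1664 were well above background on both wild-type arrays. They have no gene name, and the study has no array without suture RNA to set them against. Of these, 448 were bright, with a median difference of 0.18, and 48 of those were 2-fold or more higher at P7 and 15 were lower. Of bright named genes, 2.42% were higher and 1.53% lower, with probes agreeing. No agreement of probes was asked of the intergenic probes. Probes without a gene name were not scored as repeat-like, so any that hold simple repeats are still in these counts.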

How the results depend on the processing

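No paired analysis was possible because each group has 1 array. For 123 bright genes higher, 78 lower, 454 of all measured genes higher and 233 lower, the counts stayed within 1.5 times under cyclic loess, quantile normalization, median scaling, the authors' values, the mean over probes, the probe nearest the 3′ end and both other rules on agreement. After normexp with the 75th percentile they were 6, 661, 7 and 704. After normexp with the median they were 12 and 192 for bright genes and 29 for all genes higher. With 2 or more usable probes required they were 12, 11, 26 and 26, from fewer genes. A bright limit of 1 gave 191 and 135, and of 3 gave 79 and 49. A 1.5-fold threshold gave 450, 342, 1573 and 923, and a 3-fold threshold 12, 32, 55 and 69. No filter on dim probes gave 10145 and 927 over all genes, and the stricter filter gave 127 lower. Without probes shared with 5 other genes, a setting chosen after seeing the data, 77 bright genes were higher.

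Of list medians at least 0.24 from 0, 19 values turned sign, all under normexp except that of osteocyte genes (0.36 with a bright limit of 1). With the 75th percentile they were -0.25 for osteoblast, -0.43 for procollagen enzymes, -0.077 and -0.17 for fibrillar and other collagens, -0.18 for small proteoglycans, -0.11 for elastic fibre, -0.26 for fibrous matrix, -0.0169 for hypertrophic cartilage, -0.17 for suture mesenchyme, -0.30 for matrix proteases, -0.19 for the Igf axis, -0.38 for interferon, -0.37 for lysosome and -0.0256 for clock genes. With the median they were -0.14 for procollagen enzymes, -0.0095 for matrix proteases, -0.0854 for interferon and -0.0747 for lysosome genes. Each of these normexp medians lay above that of all bright genes (-0.55 and -0.25), which are moved down by this correction and its offset together. The other list medians gave 851 values within 0.24 of the main one and 79 that moved further. No named gene past 2-fold changed sign. Of the 26 lists with a median nearer 0 than that, 15 turned sign under at least 1 alternative, so their direction is not settled. Dim genes are limited by signal over background, which was lowest on the P7 array.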

Other observations

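Histone genes of the replication-dependent clusters, whose messages lack a poly(A) tail and peak when DNA is copied, were mostly lower at P7. This family was chosen after values were seen. Of 23 bright members 10 were at least 2-fold lower (1.53% of all bright genes were), 0 were higher (2.42%) and 19 lay below 0, with a median of -0.89 and a range from -1.55 to 0.94. H1f4, a linker histone, fell from 6.66 to 5.12, H2bc18 from 3.15 to 1.63 and H2ac4 from 6.36 to 5.11. H4c12 was read by 2 probes, at -1.04 and -1.12. Copies within a histone class are nearly identical, so their probes may share transcripts. By the definition above, H2ac10, H2ac11, H2ac12, H2ac15, H2ac19 and H2ac20 were read by repeat-like probes. The family median is the value of H2ac10, and a median without these genes was not computed. Small nuclear and nucleolar RNA genes, also without poly(A) tails, had 5 bright members, 3 of them lower (1.53% of all bright genes), with a median of -1.19. Rnu2-10, a U2 gene, fell from 5.8 to 4.05, and Rnu1b6, a U1 gene, was 0.70 lower. The cell cycle list had a median of -0.17, and the slope of the difference along transcripts was 0.18 per kb towards the 3′ end. Their part in the histone values was not tested.

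The next 5 genes, outside the lists, were picked because they were low at P7, so they stand for no group, and the macrophage and monocyte list itself had a median of -0.16 with 1 gene higher and 1 lower. Lrg1, a glycoprotein of neutrophil granules, had a difference of -2.23, Alox5ap (needed for leukotriene synthesis) of -2.10, Cd52 of -2.03 and Coro1a (an actin-binding protein of leukocytes) of -1.66. Ncf4, a subunit of the phagocyte oxidase, was at -1.21.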
